A study of Mus musculus with 6 samples.

Results

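Interferon-stimulated genes, the transcripts that cells switch on after sensing interferon, were followed in aortic arches of mice that had received bone marrow with or without the microRNA gene Mir21. A list of 32 such genes made up the set, and its members were every non-control probe on the array that carried one of those gene names. This gave 42 of 55681 probes, or 32 of 24191 named genes. Of the 32 genes, 22 had 1 probe and 10 had 2. The rule for choosing them uses no measured value.

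The arches came from 6 female mice with the strain label C57BL/6, all of them Mir21+/+ before transplantation, and the labels name no other allele. All were X-irradiated over the whole body, with 2 doses of 5 Gy given within 4 h, and were injected with donor marrow the next day. The marrow was Mir21+/+ in 3 mice (wild-type marrow) and Mir21–/– in the other 3 (knockout marrow). A high-fat diet was started 3 weeks after irradiation and was given for 12 weeks before the arch was taken. Vessel wall cells of the recipient therefore kept Mir21 in both groups, and the share of arch cells that came from the donor was not given. The age of the mice was not given either. The series title names the circadian control of apoptosis in atherosclerotic lesions as the subject, and the interferon response was not its stated question.

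Type I interferons bind the receptor chains IFNAR1 and IFNAR2, whose kinases JAK1 and TYK2 activate transcription factors, STAT2 among them. A complex that holds STAT2 and IRF9 then binds the interferon-stimulated response element in the promoters of antiviral genes. Interferon gamma acts at the gamma-activated site, and induces IRF1 and the guanylate-binding proteins among others. In the artery wall, macrophages, plasmacytoid dendritic cells, T cells, endothelium and smooth muscle can all respond to interferon.

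The 2 kinds of site can be seen in the members' own promoters, which are shown because a larger share of members than of all genes held their letters, although not all members did. Promoters were taken from a RefSeq table on build GRCm38.p6, which held 25 of the 32 members, and the 250 bases upstream of each start were searched on both strands by exact letters. The response element was searched as GAAA, any 2 bases, GAAA, and the gamma-activated site as TTCNNNGAA. The 2 patterns may overlap where GAAA follows TTC. Matches are in capitals below, in the direction of the gene.

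Isg15 (chr4:156200860-156200911, minus strand): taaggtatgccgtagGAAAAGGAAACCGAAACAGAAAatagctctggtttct
Ifit1 (chr19:34640770-34640828, plus strand): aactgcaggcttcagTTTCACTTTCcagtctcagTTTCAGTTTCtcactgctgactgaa
Ifit3 (chr19:34583358-34583431, plus strand): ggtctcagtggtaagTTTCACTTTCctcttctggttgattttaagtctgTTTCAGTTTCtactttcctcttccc
Oas3 (chr5:120777710-120777749, minus strand): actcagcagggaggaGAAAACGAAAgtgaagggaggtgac
Irf1 (chr11:53769909-53769947, plus strand): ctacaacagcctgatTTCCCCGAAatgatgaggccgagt
Gbp7 (chr3:142530215-142530307, plus strand): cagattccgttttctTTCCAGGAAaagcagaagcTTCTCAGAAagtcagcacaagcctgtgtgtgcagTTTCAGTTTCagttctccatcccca
Igtp (chr11:58199496-58199546, plus strand): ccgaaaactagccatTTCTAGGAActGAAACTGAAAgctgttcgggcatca

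Isg15 had 3 overlapping response element matches in the stretch shown, which runs from 93 to 42 bases upstream of its start. Ifit1 and Ifit3 had 2 each, spelled on the opposite strand as TTTC, any 2 bases, TTTC. Irf1 had only the gamma-activated site, whereas Gbp7 and Igtp held both patterns. In all, the response element letters were found in 14 of 25 members (56.0%), against 936 of 27025 genes in the table (3.46%). The gamma-activated site letters were found in 7 members (28.0%), against 8.13% of genes, 4 members held both and 8 held neither. The 13 measured members with response element letters had a median difference between marrow groups of -0.14 (log2), with a range of -0.58 to 0.30. For the 11 without them it was -0.06, with a range of -0.36 to 0.38. Promoters of Usp18, Mx1, Mx2, Oas2, Rtp4, Zbp1 and Ifi27l2a were not analysed here.

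Each arch was hybridised to 1 array in 1 colour. Each level below is a log2 processed signal from which the 75th percentile of that array was taken away. A difference is the mean with knockout marrow minus the mean with wild-type marrow, with its standard error (SE) from limma over 3 arrays per group. Between 66.4% and 74.4% of spots were well above background, with the 75th percentile of signal between 239 and 407, and knockout replicate 3 had the lowest value of both. All arrays shared 1 slide and 1 scan, but row 1 of the slide held the wild-type arrays and row 2 those with knockout marrow, so that row and group cannot be told apart. No probe carried the name of Mir21 (0 of 55681), and the knockout could not be checked. Myh11 and Acta2, contractile proteins of smooth muscle, and Pecam1 of endothelium were well above background on all 6 arrays. So were all 16 adipocyte markers, whose mean level was much lower on knockout replicates 2 and 3 than on the other arrays.

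The interferon-stimulated genes were detected in these arches. A probe was tested where every array of 1 or both groups read it well above background, and such a probe was available for 31 of the 32 genes and for 38 of the 42 probes. On all 6 arrays 30 genes passed. Oas3 passed on 3 wild-type arrays and 1 knockout array. Ddx60, a helicase of the RIG-I-like receptor pathway, was not well above background on any array. The same held for a second probe of Gbp7, while second probes of Ifih1 and Irf1 each passed on 1 array. Those 4 probes were not tested.

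None of the 31 genes passed the test of a difference between marrow groups after adjustment over all tested probes (limma, Benjamini-Hochberg, smallest adjusted p = 0.482). Among all 18576 genes 1 did, which is 0.00538%. At an unadjusted p below 0.05, 1 member was lower with knockout marrow, against 3.98% of all genes, and 0 were higher, against 3.45%. The 3 knockout arrays all lay below the 3 wild-type arrays for 1 member, Usp18, against 5.9% of all genes. They all lay above for 1 member, Oasl2, against 6.09% of all genes. These shares of 31 genes are near the background. The signs were less even, with 23 of 31 members (74.2%) below 0, against 48.9% of all genes, and a median difference of -0.14, against 0.01. All 31 signs come from the same 6 arrays, so they are not separate observations, and the tally was not tested. With the mean of all tested probes per gene, 21 members were below 0. No member differed by more than 1.5-fold, and differences ran from -0.58 (Oas3, with 2 of 3 knockout values not well above background) to 0.38. This tally turned around under 2 of the 18 alternative settings. With each array's mean adipocyte marker level as a covariate 13 members were below 0 and 18 above, and without knockout replicates 2 and 3, the arrays lowest in adipocyte and thymocyte markers, 8 were below 0 and 23 above.

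The data bounded most of these differences. The 95% confidence interval lay within 2-fold in either direction for 22 of 31 genes. It reached 2-fold lower for 8 genes, namely Oas2, Oas3, Ifit3, Mx1, Ifi44, Rsad2, Gbp3 and Gbp7, and 2-fold higher for Isg20. Standard errors ran from 0.15 to 0.48 with a median of 0.24, against 0.21 over all genes. A difference of 2-fold thus lay outside the interval of the first 22 genes. This is a statement on single intervals, not on what the adjusted test could call with 3 arrays per group.

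**Figure D1:**
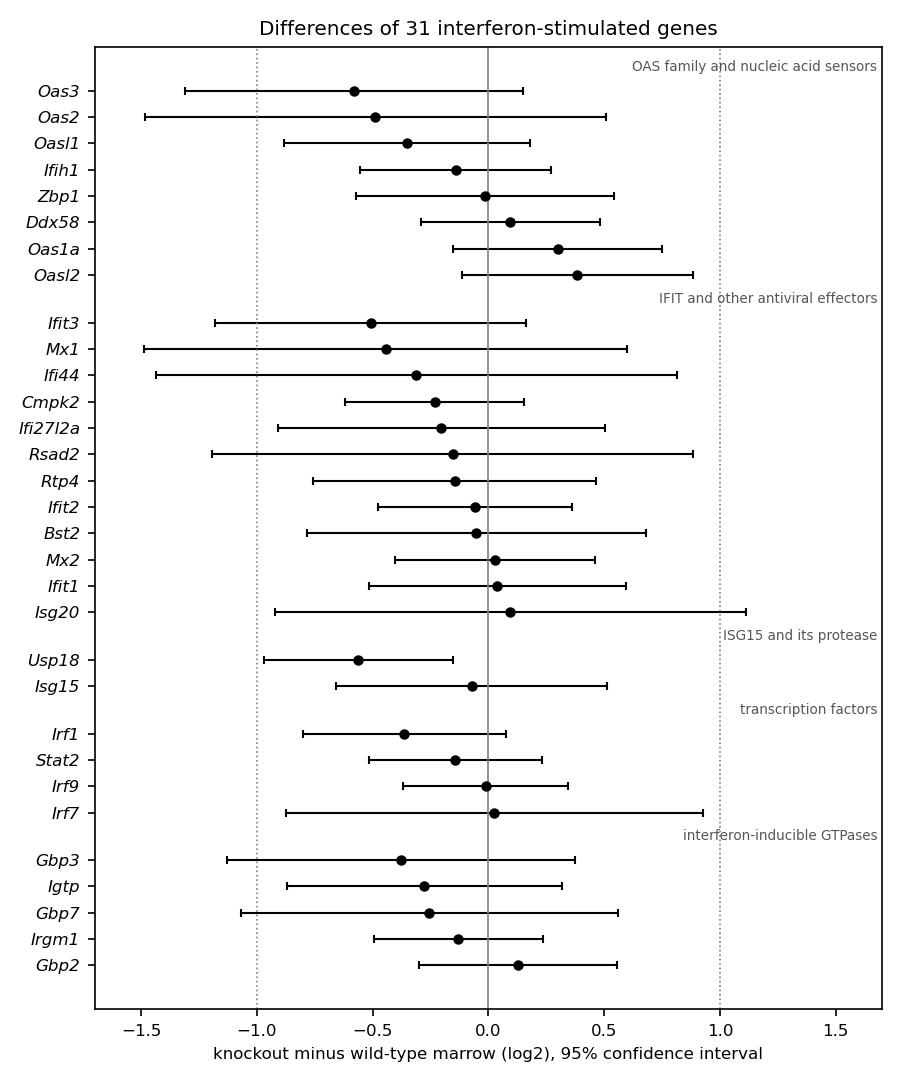
Difference between knockout and wild-type marrow (horizontal axis, log2) for the brightest tested probe of 31 interferon-stimulated genes, in 5 groups by role, with points for estimates and bars for 95% confidence intervals from limma (n = 3 arrays per group). Dotted lines mark 2-fold in either direction, and only the interval of Usp18 lies wholly on one side of 0.

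The ISG15 system held the member with the smallest p. Usp18, the protease that takes ISG15 off its target proteins and also dampens signalling at the type I receptor, was read by a probe at chr6:121220874-121220933 on mm9. Wild-type arrays gave levels of 0.11, 0.37 and 0.15, and knockout arrays gave -0.13, -0.39 and -0.53. All knockout values lay below all wild-type values. The difference was -0.56 ± 0.17 (SE), or 1.48-fold, with an unadjusted p = 0.0134 and an adjusted p = 0.482 (limma). Over the 18 alternative settings the difference ran from -0.67 to -0.34, with unadjusted p below 0.05 in 15 of them. Isg15 itself, the ubiquitin-like modifier, had a difference of -0.07 ± 0.25. It stood at 2.01, 2.78 and 2.77 with wild-type marrow, against 2.56, 2.19 and 2.59 with knockout marrow. The groups overlapped, with wild-type replicate 1 and knockout replicate 2 the lowest of the 6.

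Transcription factors of the response were measured for 4 genes. Irf1, a factor induced by interferon gamma (chr11:53590746-53590805), read 2.56, 2.60 and 2.92 with wild-type marrow. With knockout marrow it read 2.59, 2.24 and 2.17, a difference of -0.36 ± 0.19 (adjusted p = 0.630, limma). Replicates 2 and 3 of the knockout group lay below every wild-type array, but replicate 1 lay among them. Stat2 and Irf9, parts of the type I complex, differed by -0.14 ± 0.16 and -0.01 ± 0.15. Irf9 had the tightest spread of all members, a within-group SD of 0.11. Irf7, which amplifies interferon transcription, differed by 0.03 ± 0.39, and its 6 values ranged from -1.49 to -0.17, both ends within the knockout group.

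Among the oligoadenylate synthetase (OAS) family and nucleic acid sensors the members pointed both ways, 5 below 0 and 3 above. OAS enzymes make oligoadenylates that activate RNase L in infected cells. Oas3 (chr5:121203598-121203657) was dim, at -3.80, -3.83 and -3.44 with wild-type marrow, against -3.55, -4.64 and -4.62 with knockout marrow. Knockout replicate 1 lay among the wild-type arrays, and the other 2 knockout values were not well above background, so only 1 knockout array measured the gene. It entered the test through the wild-type group, and its fitted difference of -0.58 ± 0.31 (adjusted p = 0.639, limma) rests in part on those background readings.

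Oasl2, an OAS-like protein (chr5:115362168-115362227), went the other way, at 1.24, 1.09 and 1.19 with wild-type marrow, against 1.98, 1.42 and 1.27 with knockout marrow. All knockout values exceeded all wild-type values. The difference was 0.38 ± 0.21 (adjusted p = 0.650, limma), and it came to 0.17 without knockout replicate 1. Oas1a (chr5:121346735-121346794) stood at 2.41, 2.35 and 1.93 with wild-type marrow, against 2.59, 2.67 and 2.33 with knockout marrow. The ranges overlapped, with a difference of 0.30 ± 0.19. Oas1a belongs to a cluster of closely similar genes that its probe may not separate.

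Oasl1 (chr5:115387861-115387920) had values of -0.02, 0.20 and 0.43 against 0.20, -0.12 and -0.53, a difference of -0.35 ± 0.23. Oas2 (chr5:121180343-121180402) read 2.04, 0.83 and 0.84 against 1.42, 0.71 and 0.12, a difference of -0.49 ± 0.43. In both genes knockout replicate 1 lay inside the wild-type range, and replicates 2 and 3 lay below it. The cytosolic RNA sensors Ifih1 (MDA5) and Ddx58 (RIG-I) differed by -0.14 ± 0.18 and 0.09 ± 0.17. Zbp1, a sensor of Z-form nucleic acids, differed by -0.01 ± 0.24. The 5 family members and the sensors thus did not share a direction.

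**Figure D2:**
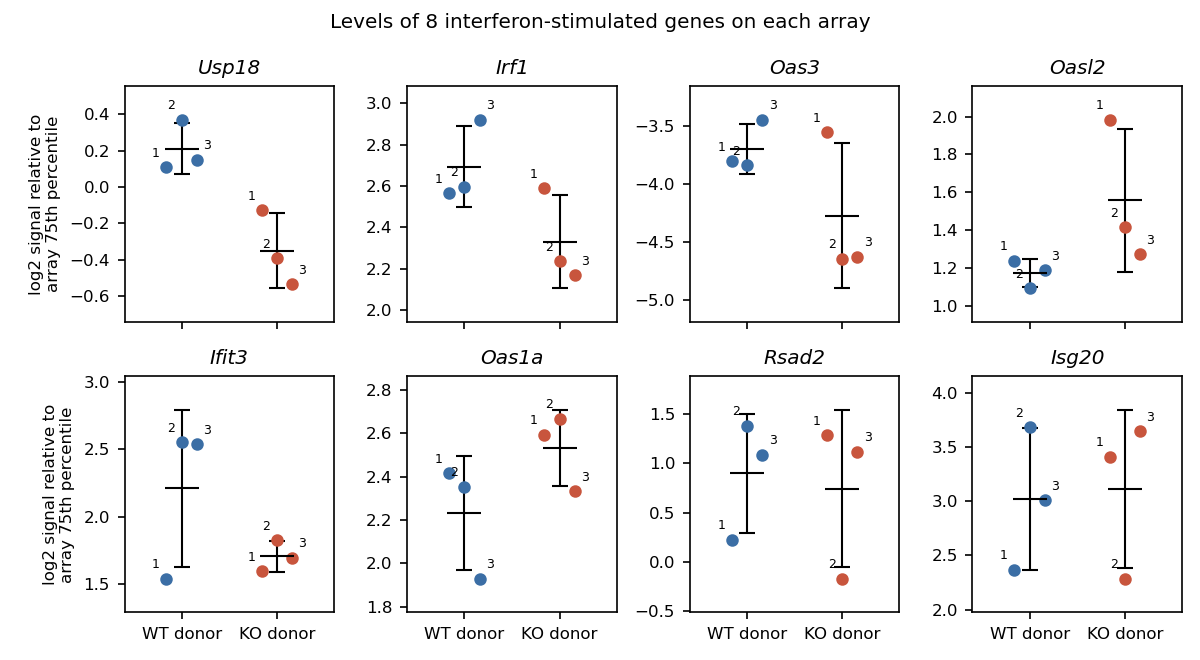
Log2 signal relative to the array's 75th percentile (vertical axis, scaled separately per gene) for 8 interferon-stimulated genes on each of the 3 wild-type-marrow (blue) and 3 knockout-marrow (red) arrays, numbered by replicate, with bars for mean and SD. The groups do not overlap for Usp18 and Oasl2, and knockout replicate 1 lies apart from replicates 2 and 3 for Irf1 and Oas3.

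The antiviral effectors formed the largest role group, with 12 genes, 9 of them below 0, and 0 with groups that did not overlap. Ifit3, a member of the RNA-binding IFIT family (chr19:34663105-34663164), was at 1.54, 2.55 and 2.54 with wild-type marrow. It was at 1.59, 1.82 and 1.69 with knockout marrow, a difference of -0.51 ± 0.29 (adjusted p = 0.653, limma). Wild-type replicate 1 was the lowest of all 6 arrays here, and without it the difference was -0.85. The related Ifit1 and Ifit2 differed by 0.04 ± 0.24 and -0.06 ± 0.18, and differences between the 3 genes were not tested. Wild-type replicate 1 was the lowest array for Ifit1 as well. Ifit3 has a near-identical neighbour, Ifit3b, whose probe gave -0.36, 0.57 and 0.45 against -0.41, -0.18 and -0.27. That is the same order of arrays but for the lowest 2, and the 2 probes may read both transcripts.

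The widest spread between mice of 1 group was that of Ifi44, Rsad2 and Mx1. Ifi44 (chr3:151394035-151394094) stood at -0.29, -1.52 and -0.67 with wild-type marrow, against -0.21, -1.20 and -2.0 with knockout marrow. Its highest and lowest value both fell in the knockout group, and its within-group SD was 0.77, against a median of 0.33 over the members and 0.25 over all genes. Rsad2 encodes viperin, an enzyme that makes a chain-terminating nucleotide (chr12:27127859-27127918). It read 0.23, 1.38 and 1.09 against 1.29, -0.17 and 1.12, a difference of -0.16 ± 0.44. Mx1, a gene of the dynamin-like GTPase family (chr16:97668644-97668703), read -3.48, -2.55 and -1.99 against -2.57, -2.93 and -3.85, a difference of -0.44 ± 0.45. For all 3 the ranges of the groups lay across each other.

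Arrays low for one effector were not always low for the next. Rsad2, both probes of Isg20 (an exonuclease) and both probes of Isg15 had their lowest 2 values on wild-type replicate 1 and knockout replicate 2. Ifi44 and Mx1 were lowest on knockout replicate 3. Bst2 (tetherin, which holds budding virions at the membrane) differed by -0.05 ± 0.31, and its lowest values were on wild-type replicate 2 and knockout replicate 3. Ifi27l2a differed by -0.20 ± 0.30, Rtp4 by -0.14 ± 0.26, Mx2 by 0.03 ± 0.18 and Isg20 by 0.09 ± 0.44.

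Interferon-inducible GTPases, which act on the vacuoles of intracellular microbes, gave 4 of 5 values below 0 and a median of -0.26. Gbp3 (chr3:142236032-142236091) read 1.97, 1.14 and 1.66 with wild-type marrow, against 1.83, 1.02 and 0.79 with knockout marrow, a difference of -0.38 ± 0.32. Gbp7 differed by -0.26 ± 0.35, Igtp by -0.28 ± 0.25, Irgm1 by -0.13 ± 0.16 and Gbp2 by 0.13 ± 0.18. In all 5 the ranges overlapped. Gbp3, Gbp7, Igtp and Irgm1 were each lowest on knockout replicate 2 or 3, as the map of deviations shows.

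**Figure D3:**
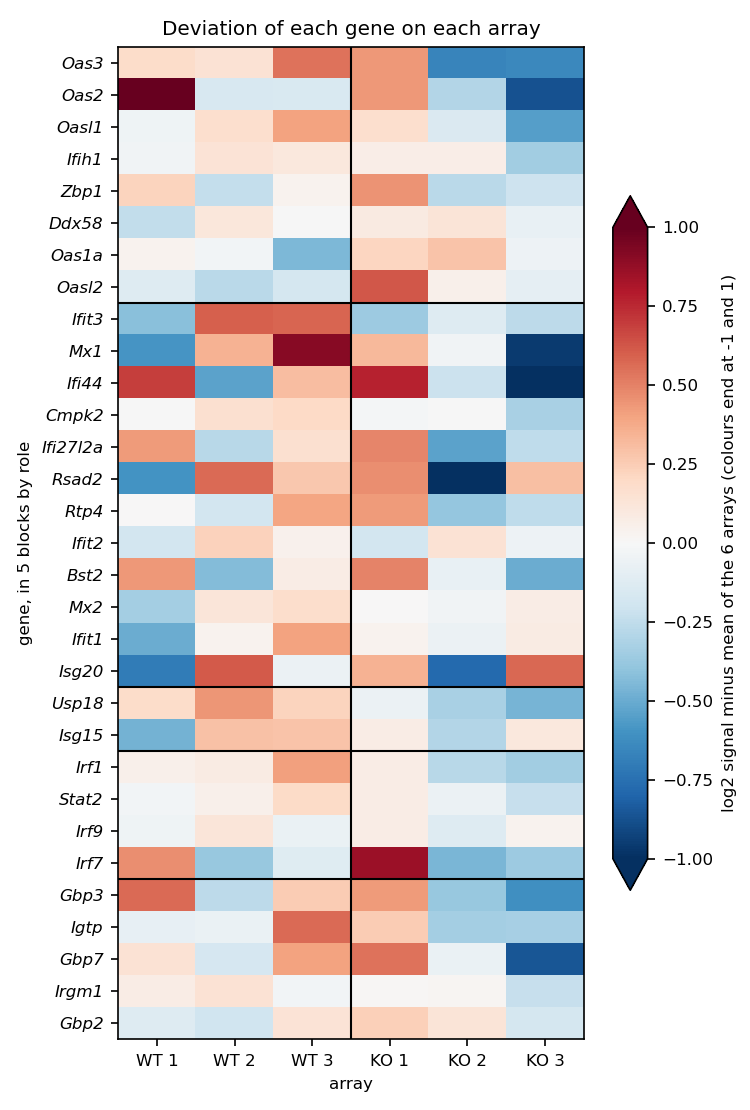
Log2 signal minus the mean of the 6 arrays (colour, ending at -1 and 1) for 31 interferon-stimulated genes (rows, in 5 blocks by role) on each array (columns, WT for wild-type and KO for knockout marrow). Knockout replicate 1 is mostly above the mean and knockout replicates 2 and 3 mostly below it, while wild-type replicate 1 is mixed.

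The 3 knockout arrays therefore did not form a uniform group for this set. Averaged over the 31 genes, the deviation from the mean of the 6 arrays was 0.00, 0.04 and 0.19 on the wild-type arrays. It was 0.25, -0.20 and -0.29 on the knockout arrays, the highest and the lowest 2 of the 6. Knockout replicate 3 was the lowest array for 13 of 31 genes (41.9%, against 18.7% of all genes) and the highest for 0 (against 27.3%). Knockout replicate 2 was the lowest for 9 (29.0%, against 17.0%). Knockout replicate 1 was the lowest for 0 (against 25.4%) and the highest for 9 (29.0%, against 17.2%).

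Leaving out knockout replicate 1 moved the median difference from -0.14 to -0.31. The groups then did not overlap for 9 genes in the lower direction, against 18.8% of all genes, and for 1, Oasl2, in the higher direction, against 19.6%. Those 9 were Oas2, Oas3, Oasl1, Rtp4, Usp18, Irf1, Stat2, Gbp3 and Igtp, and 0 of the 31 passed the adjusted test (limma, smallest adjusted p = 0.118, for Oas3). Both knockout values of Oas3 that then remain are not well above background, so its separation and its p rest on background readings. Leaving out wild-type replicate 1 gave 9 genes in the lower direction as well, against 10.1% of all genes. These were Oasl1, Ifih1, Ifit3, Mx1, Mx2, Cmpk2, Isg15, Usp18 and Irf1, with a median of -0.19 and again 0 past the adjusted test. Oasl1, Usp18 and Irf1 were among the 9 in either case. The groups of Usp18 were already apart with no array left out. For Irf1 and Oasl1 the groups overlapped only through knockout replicate 1 and wild-type replicate 1, so leaving out either parts them. The place of these genes in both lists was thus fixed by the full data and is no separate check. Leaving out both knockout replicates 2 and 3, which leaves 1 knockout array that is assumed to vary like the others, turned the median to 0.13.

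Markers of other tissue moved with the same arrays. The 16 adipocyte markers, which include Adipoq and Ucp1, had mean deviations of 1.02, 0.29 and 1.20 on wild-type arrays, against 1.27, -1.32 and -2.46 on the knockout arrays. The difference was below 0 for 15 of them and above for 1, Lep, which read -1.78, -1.12 and -1.62 against -1.32, -0.83 and -0.57. The 8 markers of immature thymocytes gave 0.52, 0.37 and 0.61 against 0.57, -1.20 and -0.86, and Rag1, Rag2 and Ptcra were well above background on 1 knockout array each and Themis on 2. All 8 differences were below 0, the largest that of Cd1d1 (-2.49). Cd1d1 read 3.17, 1.67 and 3.75 against 3.27, -0.33 and -1.81, and it weighs most in the value of knockout replicate 3. Knockout replicates 2 and 3 were thus the lowest for both lists, as for the interferon-stimulated genes. With each array's mean adipocyte marker level as a covariate the median of the 31 genes was 0.04. In that fit Usp18 differed by -0.42 and Oasl2 by 0.71.

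Macrophage and lymphoid markers ordered the knockout arrays differently. The 19 measured macrophage and monocyte markers deviated by 0.19, -0.37 and -0.21 against 0.06, 0.90 and -0.57. Not all followed that mean. Lyz2 was highest on knockout replicate 2, at 3.19, whereas Csf1r read 4.16, 4.16 and 4.24 against 4.33, 4.21 and 3.86. Plasmacytoid dendritic cell markers (8 genes) gave 0.12, -0.08 and -0.03 against 0.30, -0.43 and 0.12. Their levels lay far apart, with wild-type means of 7.35 for Siglech, -1.54 for Ccr9 and -3.41 for Klk1, and Siglech was highest on knockout replicate 3. Whether each of these probes reads such cells was not tested. T and NK cell markers (14 of 16 measured) gave -0.13, 0.08 and -0.01 against 0.36, -0.43 and 0.14, and B and plasma cell markers (9 of 10) -0.13, -0.28 and 0.24 against 0.45, -0.61 and 0.33. For these last 3 lists knockout replicate 2 was the lowest array and knockout replicate 1 the highest, but knockout replicate 3 was not low.

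Neutrophil markers (9 of 10) gave -0.35, 0.98 and -0.41 against 0.44, -0.07 and -0.59, with the knockout arrays in the same order as for the interferon-stimulated genes. Endothelial markers (12) gave 0.11, 0.20 and 0.05 against 0.05, -0.07 and -0.35, and contractile smooth muscle markers (10) -0.20, -0.01 and -0.26 against -0.24, 0.26 and 0.46. Fibroblast markers (10) gave 0.01, -0.37 and 0.04 against 0.08, 0.29 and -0.06. Smooth muscle was thus highest, and endothelium lowest, on the knockout arrays that were low for the interferon-stimulated genes. In whole tissue, fewer cells of a type and less RNA per cell cannot be told apart. The part of any of these lists in the member values was not tested. The adipocyte covariate was negative on knockout replicates 2 and 3 only. Its fit therefore cannot tell adipocyte markers apart from anything else that sets those arrays apart.

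**Figure D4:**
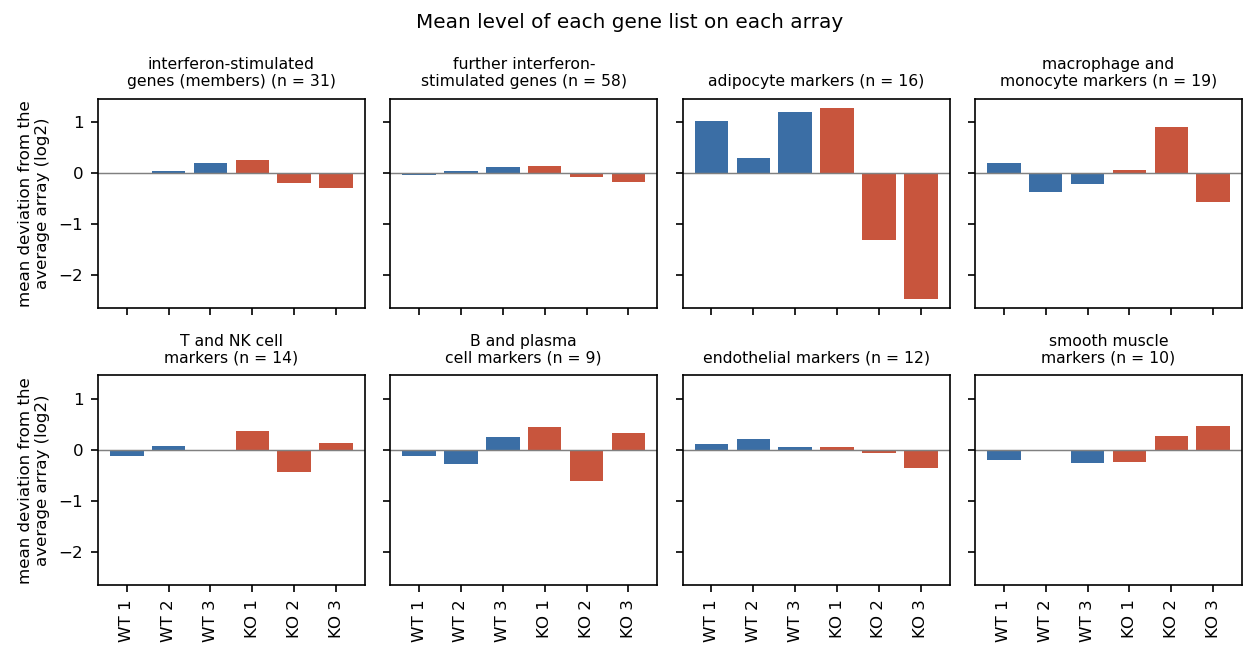
Mean deviation from the average array (vertical axis, log2) over the measured genes of 8 lists, with 1 bar per array and blue for wild-type, red for knockout marrow. Adipocyte markers fall to -1.32 and -2.46 on knockout replicates 2 and 3, where the 31 interferon-stimulated genes stand at -0.20 and -0.29.

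A second probe tested the reading of 7 genes. In 5 of them, Ddx58, Isg15, Isg20, Oas1a and Zbp1, the differences of the 2 probes were at most 0.23 apart on the log2 scale, although Ddx58, Isg15 and, close to 0, Zbp1 changed sign between probes. For Isg20 they were 0.09 ± 0.44 and 0.10 ± 0.39, and for Oas1a 0.30 ± 0.19 and 0.36 ± 0.23. Irgm1 gave -0.13 ± 0.16 with its brighter probe and 0.28 ± 0.18 with its dimmer one.

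Cmpk2, a mitochondrial nucleotide kinase, gave the largest disagreement between probes and is named here after its values were seen. Its brighter probe (chr12:27164119-27164178) read -0.45, -0.29 and -0.25 with wild-type marrow, against -0.47, -0.45 and -0.77 with knockout marrow, a difference of -0.23 ± 0.16. Its dimmer probe (chr12:27162935-27162994), which lies 1124 bases away and carries the same transcript accession, read -1.41, -1.42 and -1.33 against -0.74, -0.89 and -1.13. That is a difference of 0.47 ± 0.16 (unadjusted p = 0.0227, adjusted p = 0.522, limma), and all knockout values lay above all wild-type values. No direction can be given for Cmpk2 from these probes, and whether they lie in the same exon was not analysed here.

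**Figure D5:**
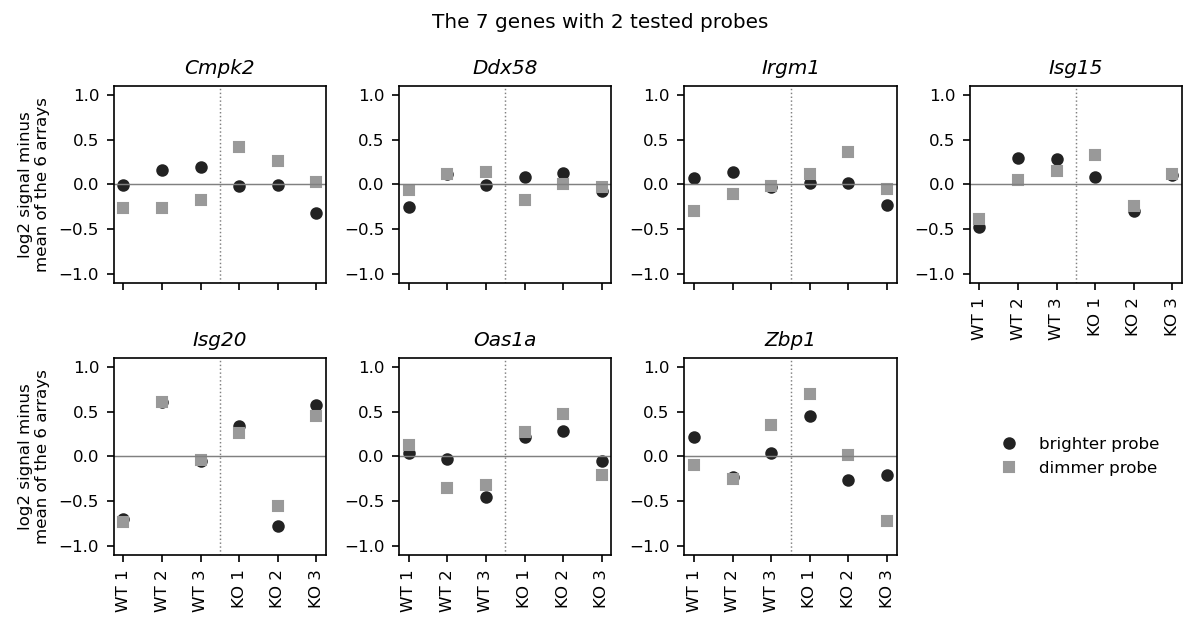
Log2 signal minus the mean of the 6 arrays (vertical axis) for the brighter (black circles) and dimmer (grey squares) probe of the 7 genes with 2 tested probes, on each array. The 2 probes of Isg20 lie close together on all arrays, whereas for Cmpk2 the brighter probe lies above the dimmer one on the wild-type arrays and below it on the knockout arrays.

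The rest of the pathway was read from fixed lists, each fitted with all genes and counted at the adjusted threshold of 0.05 (limma). Of the interferons, 16 of 21 genes had a probe and 11 were measured, with 0 past the threshold and a median of 0.20. Ifna1 differed by 0.33 ± 0.17, Ifna13 by 0.26 ± 0.19 and Ifna12 by 0.21 ± 0.17, each with overlapping groups. The interferon alpha genes are near-identical copies, so these probes may read one another's transcripts. Ifnb1, Ifng and Ifna4 were not among those measured.

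Receptors and their kinases (10 of 10 measured) had 0 past the threshold and a median of -0.11. The kinase Tyk2 differed by 0.29 ± 0.17 and the receptor chain Ifnar1 by -0.27 ± 0.20. Sensors and adaptors that induce interferon (17 of 18) had 0 past the threshold and a median of 0.02. Myd88, the adaptor of Toll-like receptors, read 1.23, 1.18 and 1.01 against 1.56, 1.72 and 1.54, a difference of 0.46 ± 0.15 (unadjusted p = 0.0175, adjusted p = 0.504, limma), with all knockout values above all wild-type values. In the lower direction the groups did not overlap for Tlr3 and Mavs, the latter named after its values were seen. These were 2 of 17 genes lower and, with Myd88, 1 of 17 higher, against 5.9% and 6.09% of all genes. With so few genes no result on the list is drawn from these counts. Tlr3, the receptor for double-stranded RNA, differed by -0.41 ± 0.20, Mavs, the adaptor of RIG-I, by -0.25 ± 0.16 and Trim25, which activates RIG-I, by -0.40 ± 0.20.

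Inhibitors of interferon and cytokine signalling (10 of 10) had 0 past the threshold and a median of -0.04. Cish, a cytokine-induced suppressor of STAT5 signalling, read 2.51, 1.44 and 1.37 with wild-type marrow, against 1.51, -1.23 and -1.14 with knockout marrow. Its difference was -2.06 ± 0.72 (unadjusted p = 0.0233, adjusted p = 0.524, limma), with knockout replicate 1 among the wild-type arrays and replicates 2 and 3 well below them. Socs1 differed by -0.24 ± 0.27 and the phosphatase Ptpn2 by -0.18 ± 0.17.

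A further 58 measured interferon-stimulated genes, of 64 listed, had 0 past the threshold, a median of -0.07 and 36 values below 0 (62.1%, against 48.9% of all genes). These signs too share the same arrays and are not separate observations. The groups did not overlap for 4 in the lower direction, Slfn8, Trim34a, Parp14 and Tgtp1, and for 1, Ifi35, in the higher, against 5.9% and 6.09% of all genes, and all 5 were named after their values were seen. Slfn8 had the smallest p of these, at -1.15, -1.17 and -0.93 against -1.62, -1.79 and -1.87, a difference of -0.68 ± 0.16 (unadjusted p = 0.00331, adjusted p = 0.418, limma). Next by p were Ifit3b, with a difference of -0.51 ± 0.26, and Parp10, an ADP-ribosyltransferase, with -0.44 ± 0.24. The mean deviations of these 58 genes over the arrays were -0.04, 0.03 and 0.12 against 0.14, -0.08 and -0.17, in the same order on the knockout arrays as the 31 members.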

How the data were processed

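Total RNA of 6 aortic arches, with an integrity number above 7.5 and 100 ng per sample, was labelled with Cy3 and hybridised to Agilent arrays, per the labels. The deposited scanner files hold processed intensity values that the authors' Feature Extraction 10.7.3.1 had corrected for background, per the file headers, with no normalization across arrays. In the deposited series table are the same intensity values within 0.5%. Each of 62976 spots was a control or 1 of 59305 probe spots. Values were log2 signals minus each array's 75th percentile, without outlier spots, averaged per probe. Testing took probes that all 3 arrays of 1 or both groups read well above background (38341, with 10 others left out because of outlier spots). Differences were fitted with limma 3.58.1 (lmFit and eBayes, two-sided, Benjamini-Hochberg over all tested probes, threshold 0.05) in R 4.3.3. Summaries used Python 3.11.15. A gene is its brightest tested probe.

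The fit was tested on simulated data. The 18 alternatives changed the dim-probe filter, the normalization with or without another background correction, the source table, the variance model, array weights, the replicate block, an adipocyte covariate, the averaging of probes and the arrays kept. Members, lists and alternatives were chosen with earlier results of these data known. Named by rule were the 10 members with the smallest p, those with groups that did not overlap, the 3 with the widest spread, and 3 genes of each pathway list, of which 1 is not reported here. Probe coordinates are those of the files, on mm9, and their exons, introns and untranslated regions were not analysed here. Promoters are from RefSeq on GRCm38.p6. Precision is limited by 3 arrays per group.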

Additional observations from a re-analysis of the deposited data

How the results depend on the processing

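No alternative put any of the 31 genes past the adjusted threshold (0 of 31 under all 18, lowest adjusted p = 0.118, limma, with 0 to 5 genes at an unadjusted p below 0.05 in the lower direction and 0 to 1 in the higher). Signs were less stable: 23 genes changed sign under at least 1 alternative and 8 under none, with 66 of 557 values changed, 12 of them with the adipocyte covariate and 15 without knockout replicates 2 and 3. The adipocyte covariate is a mean of markers from these same arrays. The cause of each change was not tested. Same-numbered arrays did not pair (correlations of deviations 0.12, 0.05 and -0.28), and the replicate block, which in this balanced design leaves each difference (median -0.14) and each overlap as it is, gave 0 genes past the adjusted threshold and 1 at an unadjusted p below 0.05.

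The median difference turned to 0.037 with the adipocyte covariate and to 0.13 without knockout replicates 2 and 3. Genes at an unadjusted p below 0.05 in the lower direction numbered 1 as reported, 3 with array weights and 0 with the adipocyte covariate. They numbered 0 to 5 when 1 array was left out (0 without wild-type replicate 2, 5 without knockout replicate 1). Over all genes that share was 3.98% as reported, 11.5% with array weights and 5.74% with the covariate. It was 11.4% once knockout replicate 1 was dropped, and 4.69% once wild-type replicate 2 was dropped. In the higher direction there were 0 members as reported, against 3.45% of all genes, and 1, Oasl2, with the covariate, against 2.88%. The fit that drops knockout replicates 2 and 3 keeps 1 knockout array, so no such count is given for it here. Genes whose groups did not overlap numbered 1 in the lower direction, 2 with median centring or without knockout replicates 2 and 3, and 1 to 9 with 1 array left out (9 without wild-type replicate 1 or knockout replicate 1). In the higher direction they numbered 1, 0 with quantile normalization, 10 without knockout replicates 2 and 3, and 1 to 2 with 1 array left out (2 without knockout replicate 3). Without knockout replicates 2 and 3, 31.9% of all genes did not overlap in the lower direction and 27.1% in the higher. With 1 array left out, 7.83% to 18.8% of all genes did not overlap in the lower direction and 7.34% to 19.6% in the higher. With median centring 5.73% did not overlap in the lower direction, and with quantile normalization 7.19% in the higher. Signal limits Ddx60 and 3 second probes, which were too dim to test.

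The genes that changed sign are given with their log2 difference. With the adipocyte covariate they were Bst2 0.43, Gbp3 0.14, Gbp7 0.36, Ifi27l2a 0.22, Ifi44 0.53, Igtp 0.037, Irf9 0.0034, Mx1 0.049, Mx2 -0.0091, Oas2 0.091, Rtp4 0.23 and Zbp1 0.33. Without knockout replicates 2 and 3 they were Bst2 0.47, Gbp3 0.24, Gbp7 0.42, Ifi27l2a 0.38, Ifi44 0.61, Igtp 0.11, Irf9 0.072, Isg15 0.042, Mx1 0.10, Oas2 0.19, Oas3 0.14, Rsad2 0.39, Rtp4 0.35, Stat2 0.00082 and Zbp1 0.44. With the mean of all tested probes they were Cmpk2 0.12, Ddx58 -0.019, Irgm1 0.075 and Isg15 0.028. With array weights they were Ifit1 -0.052, Ifit2 0.036, Irf7 -0.26 and Isg20 -0.044. With normexp background correction it was Irf9 0.011. With quantile normalization it was Irf9 0.017. With 1 array left out at a time, the ranges of the genes that changed sign were Bst2 -0.31 to 0.18, Ddx58 -0.0059 to 0.17, Gbp7 -0.59 to 0.11, Ifi27l2a -0.50 to 0.012, Ifi44 -0.77 to 0.12, Ifit1 -0.20 to 0.25, Ifit2 -0.17 to 0.043, Irf7 -0.40 to 0.26, Irf9 -0.054 to 0.050, Isg15 -0.33 to 0.057, Isg20 -0.23 to 0.51, Mx2 -0.13 to 0.12, Rsad2 -0.49 to 0.30, Rtp4 -0.39 to 0.015 and Zbp1 -0.24 to 0.12.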
